A study of Mus musculus with 2 samples.

Results

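The genes described here make, feed and switch the pyruvate dehydrogenase complex: its subunits Pdha1, Pdhb and Dlat, the kinases Pdk1, Pdk2, Pdk3 and Pdk4, the phosphatase subunit Pdp1, and the pyruvate carrier subunits Mpc1 and Mpc2. The rule that chose them used their symbols and not their values, though earlier results of these data were known. They are 10 of the 55536 annotated genes in the deposited tables. The data are total RNA sequencing of heart tissue from female B6CASTF1/J mice at 14 days of age, with 300 ng of RNA per library. These animals are first-generation hybrids, with one genome of C57BL/6J and the other of CAST/EiJ origin, and no treatment is given in the labels. There was 1 group of 2 libraries, replicate 1 and replicate 2. The labels give both libraries the same donor but different animal numbers, and the description they share can be read as a pool of 3 animals, so the SD (n = 2) given below is the spread between these libraries and may be partly technical. With 1 group, no test between groups was possible.

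Pyruvate from glycolysis crosses the inner mitochondrial membrane through a carrier built of Mpc1 and Mpc2. In the matrix the pyruvate dehydrogenase complex turns it into acetyl-CoA: the E1 enzyme, of alpha subunits (Pdha1) and beta subunits (Pdhb), releases carbon dioxide, the E2 enzyme (Dlat) passes the acetyl group on, and E3 (Dld), held by the E3-binding protein Pdhx, recycles the lipoyl arm. The Pdk kinases phosphorylate serines of Pdha1 and switch the complex off, and the Pdp phosphatases reverse this. In the heart the switch sets how much glucose is burned against fatty acids, and Pdk4 is the kinase known to rise in fasting and in response to fatty acids.

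The libraries held 36197643 and 34358598 expected counts (the estimated number of reads per gene) in annotated genes, replicate 1 first here and below. The deposited tables hold 2 quantifications of each library, and values are from the first unless the second is named. All 8 cardiomyocyte markers were present, with a median of 4155 TPM (a transcript level scaled by length and by library). Endothelial, fibroblast, macrophage and blood markers were each at 1 TPM or more in 4 of 4 genes. Markers of brown fat reached this level in 5 of 6 genes, of white fat in 4 of 5, of skeletal muscle in 2 of 7 (Ckm and Acta1, which the heart expresses too) and of liver in 1 of 5. In such a bulk sample, fewer cells of a type and less RNA per cell cannot be told apart. The brown fat markers Cpt1b and Ppargc1a also belong to other lists used below, so they are not particular to brown fat here. Summed lung marker TPM was 151 in replicate 1 and 10.1 in replicate 2, from 5 genes of which Sftpc was at 0 counts in replicate 1, and summed blood marker TPM was 24091 and 18482. Of the brown fat markers, Ucp1 was at 32.6 and 47.8 TPM and Cidea at 32.5 and 39.9 TPM. Ppargc1a went the other way, at 50.2 and 44.8 TPM. The part of these differences in the values below was not tested.

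The pyruvate dehydrogenase genes were high in both libraries. All 10 were at 1 TPM or more, and 9 of 10 lay above 9.81 TPM, the median of the 11733 protein-coding genes at that level. Their own median was 183 TPM in replicate 1 and 181 TPM in replicate 2. In the first quantification the order ran from Pdha1 through Pdhb, Pdk4, Mpc1, Mpc2, Dlat, Pdk2, Pdk1 and Pdp1 to Pdk3. Mpc1 and Mpc2 overlapped over the libraries. No other neighbours in this order did, on TPM of whole genes. With the transcripts annotated as coding alone, Mpc1 and Mpc2 no longer overlapped. The coding TPM overlapped or changed place for Pdk4 and Mpc1, and for Dlat and Pdk2. The second quantification changed the order on whole genes. There Pdhb was highest, at a mean of 514 TPM against 431 TPM for Pdha1. Pdk4, at 244 TPM, lay below Mpc2 at 389, Dlat at 349 and Mpc1 at 328 TPM.

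**Figure D1:**
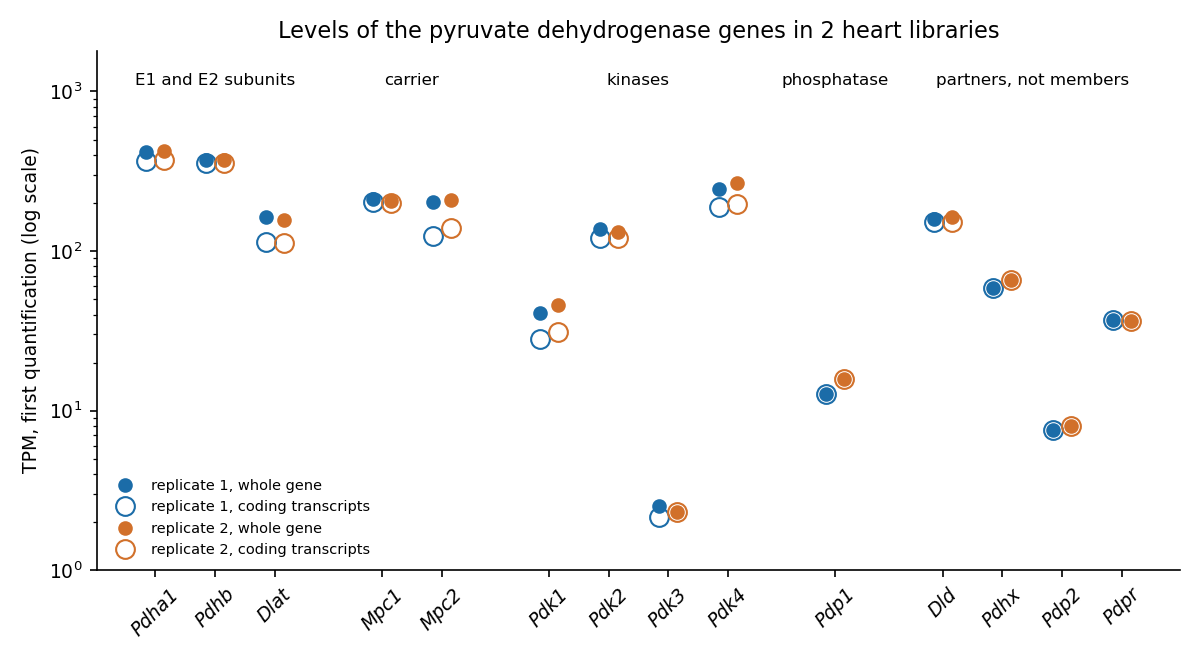
TPM of each gene in the first quantification on a log scale, by role, with replicate 1 in blue and replicate 2 in orange. Filled points are whole genes and open circles the transcripts annotated as protein coding. Pdha1, Pdhb, Dlat, Dld, the carrier, Pdk2 and Pdk4 all lay above 100 TPM. On whole genes Pdhx was at 58.7 and 65.8 TPM, Pdp1 at 12.6 and 15.7 TPM, and Pdk3 at 2.51 and 2.30 TPM.

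Pdha1, the E1 alpha subunit that carries the regulatory serines, was the highest of the 10 in the first quantification. It lies on chromosome X (mm10, 160122209 to 160138413, minus strand). Pdha1 was at 419 TPM in replicate 1 and 421 TPM in replicate 2, from 29239 and 28370 expected counts. Its mean of 420 ± 1.51 TPM (SD, n = 2) placed it at rank 138 of protein-coding genes. The coding transcript Pdha1-201 has 11 exons and 390 codons, and it held 88.0% ± 0.0212 of the TPM of the gene. The 3 stretches below are the parts of that transcript at which the kinases act, from the GENCODE M21 sequence, with the codon of the phosphorylated serine in capitals.
Pdha1 site 1, serine 293: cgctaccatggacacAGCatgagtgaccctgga
Pdha1 site 2, serine 300: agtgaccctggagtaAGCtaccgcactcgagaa
Pdha1 site 3, serine 232: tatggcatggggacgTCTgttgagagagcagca

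The codon of site 1 lies in exon 9 at chrX:160126214-160126216 and that of site 3 in exon 7 at chrX:160127636-160127638, both on the minus strand of mm10. The codon of site 2 is split by the intron between exons 9 and 10, so its genomic span of chrX:160124627-160126195 includes that intron. Sites 1 and 2 lie close enough for their 33-base stretches to overlap. Pdha2, the intronless relative of Pdha1 known from testis, differs from these stretches at 6, 10 and 8 of 33 bases at sites 1, 2 and 3. Pdha2 had 0 expected counts in both libraries, which allows up to 3 counts in each. Map3k15, which overlaps Pdha1 on the other strand, had 10 counts in each library.

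Pdhb, the E1 beta subunit (chromosome 14, 8165996 to 8173025, minus strand), stood close to its partner. Pdhb was at 371 TPM in replicate 1 and 370 TPM in replicate 2, with a mean of 371 ± 0.438. Pdha1 exceeded Pdhb by 0.18 ± 0.01 in log2 TPM (SD, n = 2), or 1.13-fold, in the first quantification. The second quantification reversed this order, with a log2 ratio of -0.25 ± 0.02. On coding transcripts alone the log2 ratio was 0.05 in the first and 0.15 in the second, so Pdha1 was at or slightly above Pdhb in both. The expected counts of Pdhb were not whole numbers, and 622 of the 1039 stretches of 31 bases in the pseudogene Gm6123 (chromosome 1) also occur in Pdhb. Gm6123 held 50.6 and 42.3 expected counts in the first quantification, against 14561 and 14041 for Pdhb. The second gave Gm6123 more, 206 and 224 estimated counts, against 14592 and 13968 for Pdhb.

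Dlat, the E2 core enzyme (chromosome 9, 50634633 to 50659780, minus strand), was at 164 TPM in replicate 1 and 156 TPM in replicate 2. Its mean was 160 ± 5.53 TPM, and the log2 ratio of Dlat to Pdha1 was -1.39 ± 0.06, or 0.381-fold. Its level depended on the quantification more than that of any other member: the second gave 349 TPM in replicate 1 and 350 TPM in replicate 2, 2.18-fold the first. The coding transcript Dlat-201 alone was at 113 and 112 TPM in the first quantification and at 119 and 120 TPM in the second. On coding transcripts, the log2 ratio of Dlat to Pdha1 was -1.72 ± 0.02 in the first and -1.81 ± 0.02 in the second.

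The other parts of the complex, which are not among the 10, were present too. Dld, the E3 enzyme shared with related complexes, was at 160 and 163 TPM, level with Dlat on whole genes and above it by 0.43 ± 0.01 in log2 TPM on coding transcripts. In the second quantification, where whole-gene Dlat was higher, the log2 ratio of Dld to Dlat was -0.64 ± 0.04. Pdhx, which anchors E3 to the core, was at 58.7 and 65.8 TPM, a log2 ratio to Dlat of -1.36 ± 0.17 on whole genes, -2.51 ± 0.12 on whole genes in the second quantification and -0.85 ± 0.13 on coding transcripts.

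The carrier subunits were as abundant as each other in the first quantification. Mpc1 (chromosome 17) was at 211 TPM in replicate 1 and 206 TPM in replicate 2. Mpc2 (chromosome 1) was at 203 and 209 TPM. Their log2 ratio of 0.02 ± 0.05 lay within the spread between the libraries. This ratio changed with the quantification and with the transcripts that were counted. The second quantification put Mpc1 lower, with a log2 ratio of -0.25 ± 0.05. Coding transcripts alone put Mpc1 higher, by 0.61 ± 0.13 in the first and 0.60 ± 0.11 in the second quantification.

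The copy is Mpc1-ps, a processed pseudogene of 330 bases on chromosome 12. It matches bases 130 to 459 of Mpc1-208, from the first coding base on, at all but 1 base (99.7% identity). Of its 300 stretches of 31 bases, 269 also occur in Mpc1 transcripts. The pair below shows the 60 bases around that difference, in capitals, from the GENCODE M21 transcripts, at chr17:8283901-8283960 on the plus strand for Mpc1-208 and chr12:110858825-110858884 on the minus strand for Mpc1-ps-201 (mm10).
Mpc1-208: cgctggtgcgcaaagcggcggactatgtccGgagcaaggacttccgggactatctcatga
Mpc1-ps-201: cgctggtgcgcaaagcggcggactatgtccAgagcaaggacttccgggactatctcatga

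The difference is G31A, counted from the first base shown with the Mpc1 base first. Within these 330 bases no other base tells the genes apart. The first quantification gave Mpc1-ps 669 and 635 expected counts, 11.9% of the counts of the pair in both libraries. Over the short length of the copy, these counts came to 103 and 101 TPM. The second quantification gave Mpc1-ps 0 counts in both libraries and Mpc1 5414 and 5060 estimated counts. Mpc1 and Mpc1-ps together held 5637 and 5346 counts in the first quantification. With the counts of the copy given to Mpc1 and scaled over the length of Mpc1, Mpc1 was at 236 ± 3.40 TPM against 206 ± 4.50 for Mpc2, a log2 ratio of 0.20 ± 0.05. Which base the CAST/EiJ genome has at this position was not analysed here. A gene on the other strand that overlaps Mpc1, 4930506C21Rik, had 1 and 3 counts.

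**Figure D2:**
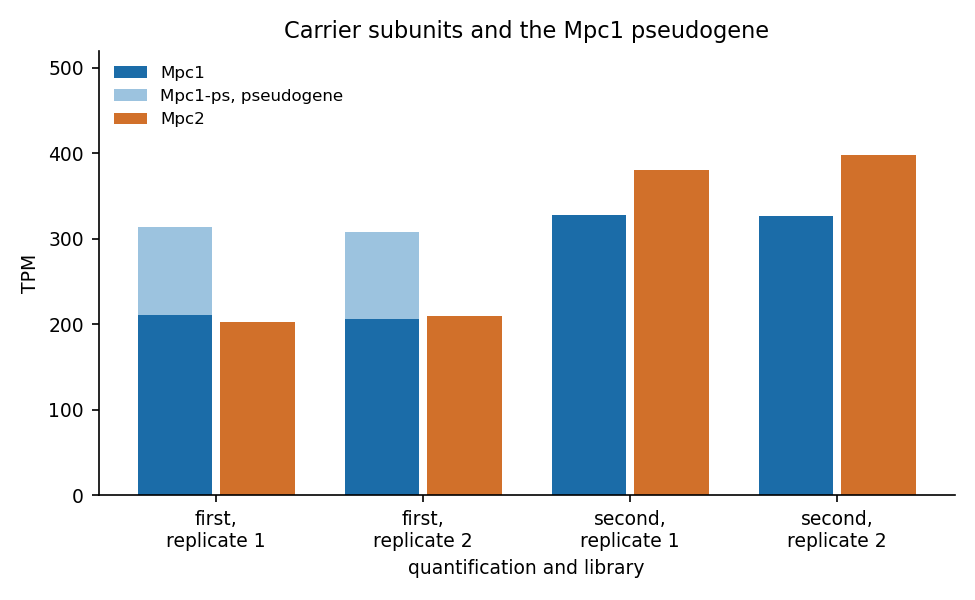
TPM of Mpc1 (dark blue), its pseudogene Mpc1-ps (light blue, stacked on Mpc1) and Mpc2 (orange) in each library and quantification. In the first quantification Mpc1 and Mpc2 stood at the same height and the copy was listed at 103 and 101 TPM over its own short length, while in the second the copy was listed at 0 and Mpc2 stood above Mpc1.

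Among the kinases, Pdk4 was the most abundant, followed by Pdk2, Pdk1 and Pdk3, in both libraries and under every measure run. Pdk4, the kinase known to respond to fasting and fatty acids (chromosome 6), was at 246 TPM in replicate 1 and 265 TPM in replicate 2. Pdk2, the broadly expressed kinase (chromosome 11), was at 137 and 132 TPM. Pdk1, known as a target of hypoxia signalling and as the kinase that can phosphorylate all the sites shown above, was at 41.1 and 45.7 TPM (chromosome 2). Pdk3 was near the lower edge, at 2.51 and 2.30 TPM from 125 and 126 counts (chromosome X). The ranges of the 4 kinases did not overlap.

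Of the summed kinase TPM, Pdk4 took 58.6% ± 1.28 (SD, n = 2), Pdk2 30.9% ± 1.67, Pdk1 9.96% ± 0.438 and Pdk3 0.553% ± 0.0514. The second quantification gave Pdk4 a smaller part, 49.3% ± 0.633, and Pdk2 a larger one, 38.5% ± 0.925. On coding transcripts the quantifications came closer to each other, with Pdk4 at 55.8% ± 0.401 in the first and 58.6% ± 0.637 in the second. Pdk4 exceeded Pdk2 by 0.93 ± 0.11 in log2 TPM on whole genes and by 0.68 ± 0.05 on coding transcripts. Pdk1 exceeded Pdk3 by 4.17 ± 0.20, or 18.0-fold. Pdk4 itself stood at 0.608-fold of its substrate subunit Pdha1, a log2 ratio of -0.72 ± 0.07.

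**Figure D3:**
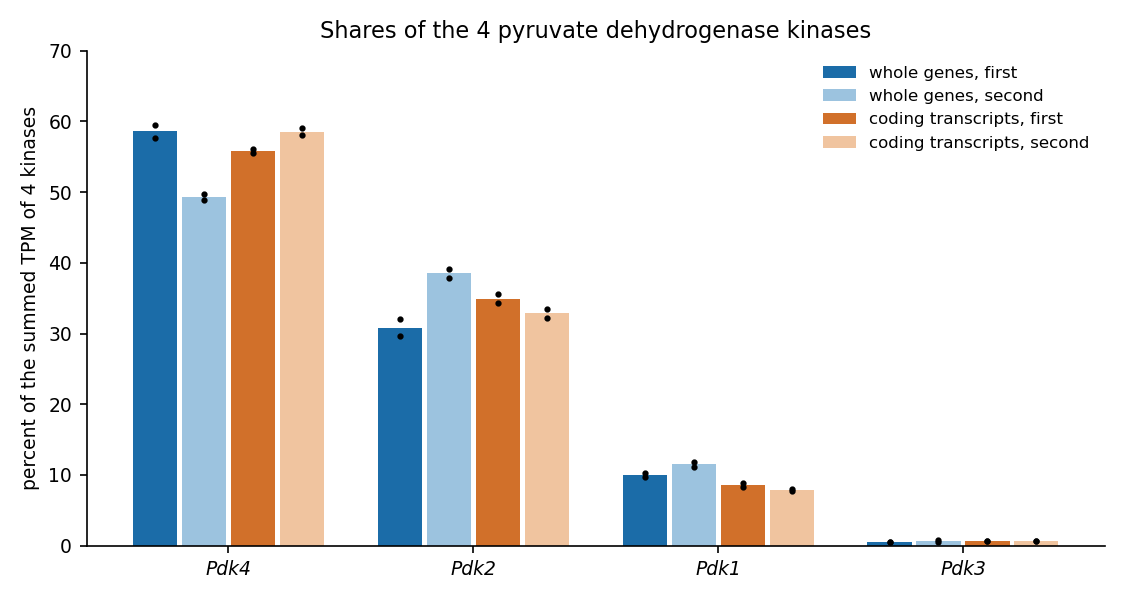
Percent of the summed TPM of the 4 kinases in each kinase, as the mean of 2 libraries (bars) with each library as a point. Bars differ in the quantification (first or second) and in whether whole genes or coding transcripts were summed. Pdk4 led in all 4 measures, with a mean between 49.3% and 58.6%.

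The catalytic phosphatase subunits were lower than Pdk4, Pdk2 and Pdk1 but higher than Pdk3. Pdp1, the catalytic subunit known for its response to calcium (chromosome 4), was at 12.6 TPM in replicate 1 and 15.7 TPM in replicate 2, from 901 and 1114 counts. Pdp2, the other catalytic subunit and not among the 10, was at 7.61 and 8.04 TPM, and the regulatory subunit Pdpr at 36.8 and 36.3 TPM. The log2 ratio of Pdp1 to Pdp2 was 0.85 ± 0.17 in TPM, while in expected counts with no correction for length it was -0.27 ± 0.20. On whole genes in the first quantification, summed TPM of the 4 kinases was 426 and 446. That of Pdp1 and Pdp2 was 20.3 and 23.8, a ratio of 19.9 ± 1.63. Coding transcripts alone put Pdk4 lower, at 188 and 196 TPM, and left Pdp1 and Pdp2 nearly unchanged. The ratio would be lower there but was not computed. The kinase sum was mostly Pdk4 and Pdk2, and Pdpr is not in the phosphatase sum.

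The 10 genes have 55 annotated transcripts, of which 21 are coding. In 9 of 10 genes a single transcript led in each library and each quantification, and in each of these genes it was coding. Pdp1 was the exception: all 6 of its transcripts are coding, and the first quantification spread its TPM over them, led by Pdp1-201 with 26.6% in replicate 1 and by Pdp1-204 with 40.9% in replicate 2. The second quantification put 83.7% and 88.0% of Pdp1 TPM in Pdp1-205, which had 3.65% and 3.03% in the first. The gene total of Pdp1 moved little, by 1.05-fold.

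Noncoding transcripts of these genes are mostly short, with a median of 636.5 bases against 2115 bases for the coding ones. The short ones mostly weighed more in TPM than in counts. Some long ones went the other way, such as Mpc2-205 of 4015 bases, with 0.40% of Mpc2 TPM and 2.06% of its counts. Pdk4-202, a retained intron transcript of 412 bases, held 3.16% ± 0.180 of Pdk4 counts but 24.9% ± 1.75 of its TPM, and 3.47% ± 1.23 of its TPM in the second quantification. Mpc2-203, a processed transcript of 493 bases, held 37.8% and 32.5% of Mpc2 TPM in the first quantification and 46.5% and 43.8% in the second. For Dlat, the coding transcript Dlat-201 held 93.5% ± 0.419 of the counts and 70.3% ± 1.69 of the TPM, and 34.1% ± 0.135 of the TPM in the second quantification. There the noncoding Dlat-206, Dlat-202 and Dlat-203 held 28.1%, 21.6% and 15.5%. Pdk2-205 held 0.23% and 0.51% of Pdk2 TPM in the first and 28.1% and 29.0% in the second, and Pdhb-207 held 2.05% and 2.25% of Pdhb TPM in the first and 20.3% and 23.6% in the second. Pdk1-206 held about the same part of Pdk1 TPM in both, 24.2% ± 1.30 and 23.2% ± 0.333.

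Across 4859 protein-coding genes at 10 TPM or more with a noncoding transcript, the median part of TPM in coding transcripts was 87.7%. Of these genes, 24.8% had a lower coding part than Dlat and 18.7% a lower one than Mpc2. Pdhb, Mpc1, Pdk2 and Pdha1 stood above that median, with coding parts of 96.6% ± 0.156, 96.5% ± 0.629, 89.4% ± 1.91 and 88.0% ± 0.0212. In the second quantification the median over these genes was 85.3%, and Pdhb and Pdk2 lay below it, at 73.3% ± 1.99 and 69.3% ± 1.01.

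The quantifications gave nearly the same counts for these genes and different TPM. Counts were within 1.2-fold of each other for 10 of 10 genes, as for 92.5% of 11708 protein-coding genes. Whole-gene TPM was within 1.2-fold for 3 of 10 (Pdha1, Pdk4 and Pdp1), against 48.5% of protein-coding genes, with a median second-to-first log2 ratio of 0.49 against 0.26. Coding TPM was within 1.2-fold for 6 of 10, against 56.2%. The 4 outside were Pdk4 and Pdk3, both over 1.2-fold higher in the second, and Mpc1 and Mpc2, 1.59-fold and 1.60-fold higher. The leading transcripts of Mpc1 and Mpc2 are short, and the length over which each quantification scales them differed: Mpc1-208 had an effective length of 859 bases in the first and 623 in the second in replicate 1, and Mpc2-201 of 926 and 690.

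**Figure D4:**
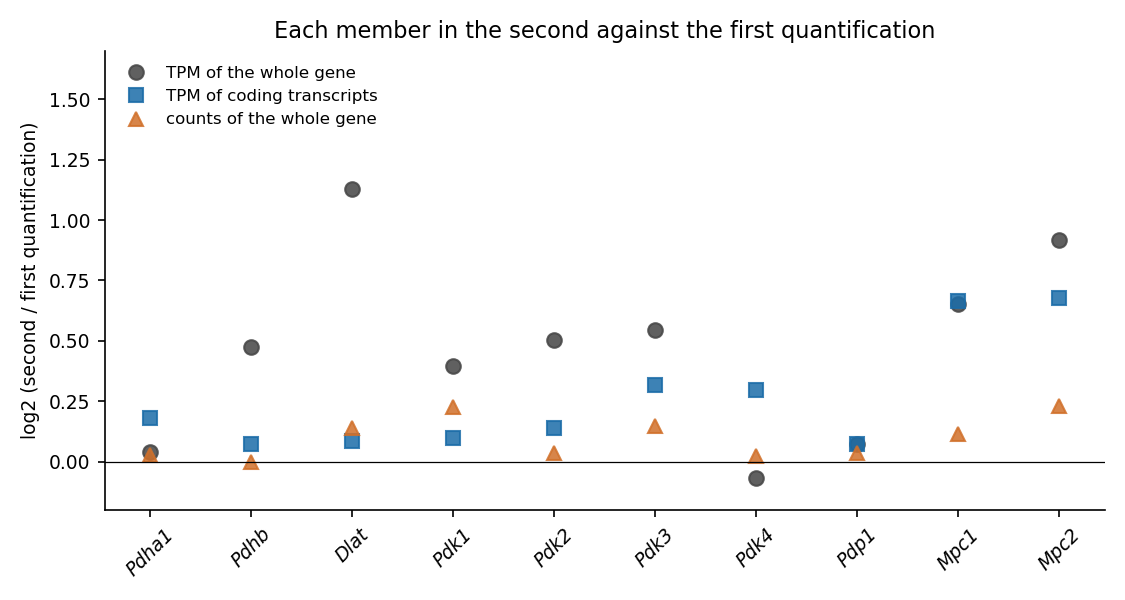
Log2 ratio of the second to the first quantification for each gene, from values summed over both libraries. Circles are whole-gene TPM, squares TPM of coding transcripts and triangles whole-gene counts. Counts lay between 0.00 and 0.23, whole-gene TPM between -0.07 and 1.13 with Dlat highest, and coding TPM was above 0.6 for Mpc1 and Mpc2 only.

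The libraries differed little in these genes. A gene was called different when its TPM was at least 1.5-fold apart after the median over genes was removed, its mean expected count was at least 50 and the deposited TPM intervals did not overlap. None of 10 was called higher in replicate 1, where 1.75% of the 12876 genes tested were, and none was called higher in replicate 2, where 0.800% were. At these background shares a count of 0 in 10 genes is near what all genes show. The median absolute log2 difference was 0.08 for the 10 genes and 0.13 for all genes tested, and 8 of 10 were within 1.1-fold, against 51.1% of genes. The genes tested were not matched to the 10 for level, and most of the 10 were far above the count minimum.

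Pdp1 had the largest difference, a log2 of -0.29 (1.22-fold higher in replicate 2), and was the 1 gene of the 10 whose deposited intervals did not overlap, as for 12.1% of genes tested. Its ratio of counts per library total was 0.768 (95% Clopper-Pearson interval 0.702 to 0.839, counting error only). This ratio has no median over genes removed, unlike the log2 TPM differences, so its interval does not apply to them. The ratio was 0.895 (0.876 to 0.914) for Pdk4 and 0.888 (0.851 to 0.926) for Pdk1. With the median removed, the log2 TPM difference was -0.08 for Pdk4 and -0.12 for Pdk1. Pdha1, Pdhb, Dlat, Pdk2 and Mpc1 had log2 differences between 0.02 and 0.10. The kinase order and the order of Pdha1, Pdhb and Dlat were the same in each library.

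Pdk4 is known to rise with glucocorticoids and in fasting, and genes that respond to the same signals were counted in the same way. The lists here and in the next paragraph were chosen with earlier results of these data known, so their counts are a description and not a test. Of all genes tested, 1.75% were called higher in replicate 1 and 0.800% in replicate 2. Of the glucocorticoid and fasting response list, 11 of 12 genes tested were called higher in replicate 1 and 0 in replicate 2. The median log2 difference of these 12 was 1.16 and that of Pdk4 was -0.08, and a link between them was not tested. Of the lung markers, 3 of 3 tested were called higher in replicate 1, and of the blood markers 0 of 4 in either direction. Among the glucocorticoid and fasting genes, the metal-binding Mt1 was at 168 and 58.7 TPM and Mt2 at 29.7 and 5.65. The cell cycle inhibitor Cdkn1a was at 43.9 and 11.8 and the glucocorticoid-induced Tsc22d3 at 107 and 64.5 TPM. Txnip of the same list, an inhibitor of thioredoxin and of glucose uptake, was not called, at 231 and 273 TPM. Of 12 targets of the fatty acid receptors PPAR, 2 were called higher in replicate 2 and 0 in replicate 1: Angptl4, an inhibitor of lipoprotein lipase, at 8.56 and 20.5 TPM, and the mitochondrial carrier Ucp3 at 20.9 and 37.6 TPM. The highest of this list, Fabp3, Cd36 and Acadm, which bind, take up and oxidise fatty acids, were not called, and the median log2 difference was -0.13.

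Of 14 regulators known for Pdk genes, Klf15 (18.6 and 10.6 TPM) and Nr4a1 (5.87 and 3.48 TPM) were called higher in replicate 1 and 0 in replicate 2. Over all genes tested the shares called were 1.75% and 0.800%. The highest of them were the receptor Esrra at 55.8 ± 3.30 TPM, the coactivator Ppargc1a at 47.5 ± 3.83 and the glucocorticoid receptor Nr3c1 at 30.2 ± 4.24. Of 7 hypoxia targets tested, Bnip3 was called higher in replicate 1 (78.8 and 52.2 TPM) and 0 in replicate 2, while Vegfa was at 107 ± 11.0 TPM and Egln3 at 29.6 ± 3.02. Whether any of these differences bears on the kinases was not tested.

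**Figure D5:**
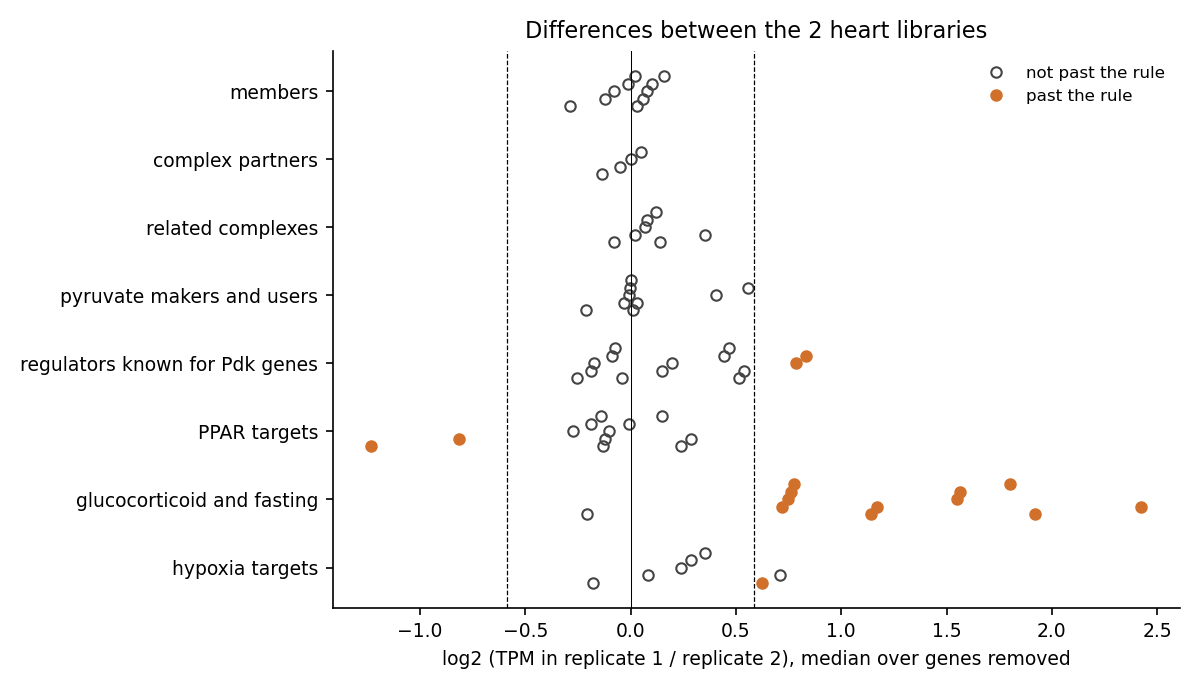
Log2 of TPM in replicate 1 over replicate 2 for each gene with a mean count of at least 50, by list, after the median over genes was removed. Dashed lines mark 1.5-fold and filled points the genes that were called. The 10 pyruvate dehydrogenase genes lay between -0.29 and 0.16. Of the glucocorticoid and fasting genes, 11 of 12 were called higher in replicate 1, against 1.75% of all genes tested. The lists were chosen with earlier results of these data known.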

How the data were processed

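Both heart libraries were described from their deposited tables, which per the readme files deposited with them use mm10 and GENCODE M21. Neither the programs nor how CAST/EiJ alleles were handled is stated in the labels or headers used here. Per the file headers, the first quantification holds expected counts, which were not normalized, TPM and posterior mean TPM over all rows, and interval bounds of the TPM of 1 library (a score of precision whose level is not stated). It also gives, per the file headers, each transcript's percent of the TPM of its gene. Deposited tables of a second quantification hold estimated counts and TPM per transcript, summed here per gene. In each library 2 of the 10 TPM values, those of Pdha1 and Pdhb, lay above their own deposited interval, which belongs to the posterior mean.

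The members and lists were chosen with earlier results of these data known. All members and complex partners are named (Mpc1l matched no symbol), and in each other list the 3 most abundant by mean TPM plus those called different, up to 5, except 1 gene that is not reported here. Rows that name no annotated gene (26345) were left out of the comparisons. Intervals were exact Clopper-Pearson at 95% from rounded counts. A count of 0 allows 3 counts, and both cover counting error only. Shared stretches of 31 bases were counted in GENCODE M21 transcripts. Alternatives used TMM scaling from edgeR 4.0.16 and median-of-ratios scaling from DESeq2 1.42.0 (R 4.3.3). Tables were handled with pandas 2.3.3 and numpy 2.4.6, intervals came from scipy 1.17.1 and plots from matplotlib 3.10.9, under Python 3.11.15.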

Additional observations from a re-analysis of the deposited data

How the results depend on the processing

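The median level of the 10 genes, 182 TPM, was 179 with posterior means, 286 in the second quantification, 424 with TPM rescaled to nuclear protein-coding genes and 126 on coding transcripts. The part of Pdk4 in kinase TPM was 49.3% in the second quantification and 55.8% on coding transcripts. The log2 ratio of Dlat to Pdha1 was -0.30 in the second quantification, -1.14 in expected counts and -1.72 on coding transcripts. That of Mpc1 to Mpc2 was -0.25 in the second quantification, 0.16 in expected counts, 0.61 on coding transcripts, 0.20 with the counts of Mpc1-ps given to Mpc1 and 0.59 with its TPM added, which is scaled over the short copy. Dlat-201 held 34.1% of Dlat TPM and Pdk4-201 81.9% of Pdk4 TPM in the second quantification. The difference of Pdk4 between the libraries was -0.12 in log2 with TMM scaling. The ratio of Pdha1 to Pdhb reversed to -0.25 in the second quantification, and that of Pdp1 to Pdp2 to -0.27 in expected counts. No member was called different under any of the 6 other settings of the call, which called between 105 and 829 of all genes. These were between 0.789% and 6.52% of the genes tested under each setting. At such shares a count of 0 in 10 genes is near what all genes show. Coding transcripts and both uses of the copy were chosen after seeing the data. With 2 libraries, leaving 1 out gives the value of the other, and depth limits Pdk3, with 125 and 126 counts.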

Other observations

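The complexes that share the design of pyruvate dehydrogenase were also expressed. Ogdh, the first enzyme of the 2-oxoglutarate dehydrogenase complex, was at 625 and 604 TPM in replicates 1 and 2, its E2 enzyme Dlst at 300 and 293 TPM, and Bckdha of the branched-chain complex at 61.2 and 57.5 TPM. None of these 7 related genes was called different between the libraries. Of all genes tested, 1.75% were called higher in replicate 1 and 0.800% in replicate 2, so this is near what all genes show. Bckdk, the kinase of the branched-chain complex and a relative of the Pdk kinases, was at 37.3 ± 2.01 TPM, close to Pdk1 at 43.4 ± 3.27.

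The list of other enzymes that make or use pyruvate had a median of 26.1 TPM, and its 3 highest genes lay above 300 TPM. Ldhb, the lactate dehydrogenase subunit typical of the heart, was at 835 and 852 TPM, Pkm, the muscle pyruvate kinase, at 539 and 539 TPM, and Ldha at 312 and 320 TPM. Pklr, the liver and red cell pyruvate kinase, had 0 counts in both libraries. None of the 9 tested was called different, which is near the shares over all genes tested (1.75% higher in replicate 1 and 0.800% in replicate 2).

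Genes that supply the lipoyl cofactor were lower. Lias, which makes lipoate, was at 25.2 and 22.7 TPM, and Lipt1, a lipoyl transferase, at 4.76 and 4.10 TPM. The mitochondrial sirtuins Sirt3, Sirt5 and Sirt4 were at 23.7 ± 1.19, 18.7 ± 0.431 and 7.66 ± 0.226 TPM. Neither Lias nor Lipt1 nor any of the 3 sirtuins was called different. This too is near the shares over all genes tested (1.75% higher in replicate 1 and 0.800% in replicate 2).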
